A study of Arabidopsis thaliana with 18 samples.

Results

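EIN3 and RTE1 are Arabidopsis genes of the ethylene signalling pathway, and their transcript levels were followed in shoots and roots of potassium-starved, caesium-treated and control plants. Each was identified as the probe set that the array annotation assigns to that gene and to no other. EIN3 (AT3G20770, chromosome 3) and RTE1 (AT2G26070, chromosome 2) are 2 of the 13356 genes with such a probe set, and each has 1. The plants were of the accession Ws-2 (stock N1601) at developmental stage 3.90, raised in a growth room on an agar medium that held sucrose and a dilute mix of Murashige and Skoog salts. The 18 Affymetrix ATH1 arrays form 6 groups of 3, namely potassium-starved roots, caesium-treated roots, control roots, potassium-starved shoots, caesium-treated shoots and control shoots. Caesium is an alkali metal that enters plants by routes that also carry potassium. The sources used here do not say how potassium was withheld, or how much caesium was given and for how long. The labels do not tell whether replicates were grown apart, so a p-value here measures the spread between arrays, some or all of which could be technical.

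Ethylene is a gaseous plant hormone that acts through receptors in the endoplasmic reticulum. Without ethylene the receptors keep the kinase CTR1 active, which holds back EIN2, and the F-box proteins EBF1 and EBF2 send the transcription factor EIN3 for degradation. With ethylene this block is lifted, EIN3 protein accumulates and the genes it binds are expressed, so much of the control of EIN3 lies at the protein, which an array does not measure. RTE1 is a membrane protein that promotes signalling by the receptor ETR1, and thereby dampens ethylene responses. In Arabidopsis, ethylene production is known to increase when potassium is short, and ethylene signalling takes part in the low-potassium response of roots.

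Values are MAS5 signals, on a linear scale in arbitrary units, scaled so that every array has the same mean once the extreme 2% at each end are trimmed. Array medians were 33.0 to 39.5 in potassium-starved shoots, 43.0 to 45.4 in caesium-treated shoots and 39.9 to 42.2 in control shoots. In roots they were 39.4 to 43.6, 43.5 to 44.8 and 42.8 to 43.4 under potassium starvation, under caesium and in controls. Potassium-starved shoot replicate 2 had the lowest median of the 18 arrays. Arrays of 1 group correlated at r = 0.933 to 0.964 across probe sets. The ratio of the 3' to the 5' control probe sets for actin is low in intact RNA. It overlapped between all 3 conditions in each tissue (1.24 to 2.17 over the 18 arrays), as did the same ratio for GAPDH (0.881 to 1.36). Of 7 shoot markers 3 had a probe set (LHCB4.1, RCA and PSAN), and their summed signal was 115.3 to 390.7 over the root arrays and 6265.3 to 10144.0 over the shoot arrays. Of 6 root markers 3 had one (PYK10, EXPA7 and EXPA18), and their summed signal was 2092.0 to 3629.7 over root arrays and 78.7 to 1252.9 over shoot arrays. None of the 6 was at 0 in either tissue, and PYK10 alone ran from 46.9 to 1199.7 across shoot arrays.

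EIN3 transcript was readily measured on all 18 arrays, at percentiles 83.9 to 96.0 of its array, with signals from 181.4 to 610.7. The highest group was potassium-starved roots and the lowest potassium-starved shoots, so the 2 ends of its range were the same treatment in different organs. By group mean the order was potassium-starved roots, control roots, caesium-treated roots, caesium-treated shoots, control shoots and potassium-starved shoots. Neighbours in this order overlapped between arrays, except that caesium-treated shoots lay above control shoots and control shoots above potassium-starved shoots. RTE1 lay at percentiles 60.0 to 85.1 of its array, with signals from 64.8 to 197.7. Its group means ran from potassium-starved roots through potassium-starved shoots, caesium-treated roots, control roots and control shoots to caesium-treated shoots, and every neighbouring pair overlapped.

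**Figure D1:**
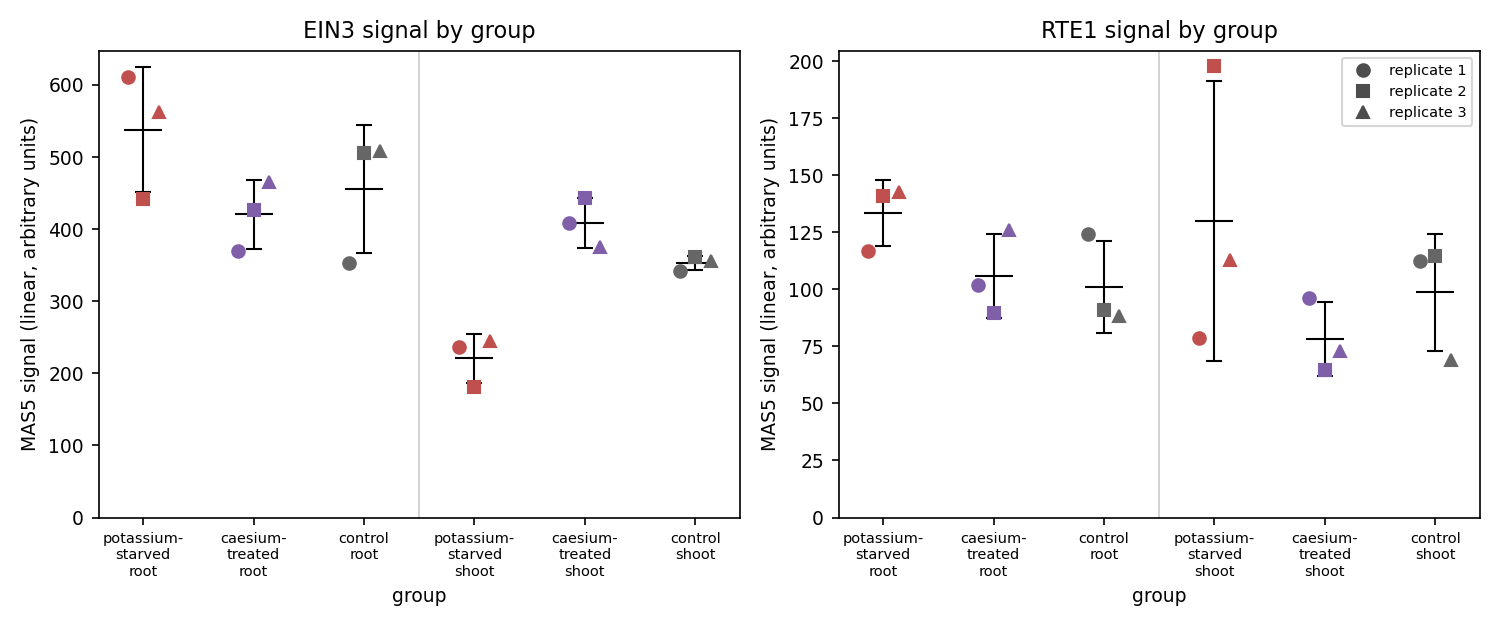
MAS5 signal (linear, arbitrary units) of EIN3 and RTE1 on each of the 18 arrays by group, with symbols for the replicate number, bars for the group mean and whiskers for 1 SD (n = 3). EIN3 in potassium-starved shoots, at 181.4 to 244.4, sits below every array of the other 5 groups, while no RTE1 group stands clear of all others. How many probe sets do the same was not counted. Against control shoots alone, 25.7% of tested probe sets were lower in potassium-starved shoots without overlap.

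EIN3 fell in potassium-starved shoots. Its signal was 236.5, 181.4 and 244.4 in potassium-starved shoots (replicates 1, 2 and 3), against 342.4, 361.3 and 355.3 in control shoots. All 3 potassium-starved arrays lay below all 3 control arrays, with means of 220.8 ± 34.3 and 353.0 ± 9.65 (SD, n = 3 each). The log2 difference by limma was -0.69 ± 0.171 (SE), a 1.61-fold lower level, with a 95% interval of -1.07 to -0.31 and an adjusted p of 0.0149. In bulk tissue, fewer cells that express a gene and less of its RNA per cell cannot be told apart.

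That call is to be read against a broad shift. In the same comparison 28.1% of the 14665 tested probe sets were called (11.4% higher and 16.7% lower), and 25.7% were lower in potassium-starved shoots with no overlap between the groups. The median of all tested probe sets was -0.14, and EIN3 lay 0.54 below that median. Of the 2446 probe sets called lower, 87.1% had a larger drop than EIN3, so its difference was among the smaller ones that passed. EIN3 varied little in shoots, with a pooled SD within groups of 0.155 on the log2 scale, against a median of 0.295 over tested probe sets. Shifting all arrays to 1 median gave a difference of -0.53, still called. Without control shoot replicate 3 it was -0.68 with an adjusted p of 0.0517, and without potassium-starved shoot replicate 2, the array with the lowest median, it was -0.55 with an adjusted p of 0.0311. The summed shoot markers moved with this comparison, at 6265.3 to 7802.6 in potassium-starved shoots and 8573.5 to 10144.0 in control shoots. Taken singly, LHCB4.1 was called lower (-0.54, adjusted p = 0.0217 by limma). PSAN (-0.35, adjusted p = 0.0821) and RCA (-0.36, adjusted p = 0.141) were not called. The part of the shoot markers in the EIN3 difference was not tested. The summed root markers overlapped, at 78.7 to 937.0 and 202.9 to 1252.9 in the same groups.

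EIN3 in caesium-treated shoots lay above control on every array, but the difference was not called. The signal was 408.8, 443.8 and 374.7 in caesium-treated shoots, and every one of these exceeded the highest control value of 361.3. Of the tested probe sets, 14.6% were likewise higher without overlap, and 0.566% were called (83 probe sets, or 681 with the replicate number as a block). The log2 difference of 0.21 ± 0.171 had a 95% interval of -0.17 to 0.59 and an adjusted p of 0.654 by limma. The interval reaches a level 1.5-fold that of control.

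The 2 treatments differed from each other in shoots. EIN3 was higher in caesium-treated shoots (409.1 ± 34.6) than in potassium-starved shoots (220.8 ± 34.3), with no overlap, as were 28.8% of tested probe sets. The log2 difference was 0.90 ± 0.171 (95% interval 0.52 to 1.28), or 1.86-fold, with an adjusted p of 0.0061 by limma. Here 26.8% of the 14665 probe sets were called and the median of all was 0.16, which puts EIN3 0.74 above it. Of the 2638 probe sets called higher in caesium-treated shoots, 64.9% differed by more than EIN3. The call held in all 17 refits, with values from 0.63 after the median shift to 0.98 without potassium-starved shoot replicate 3. This comparison shares the potassium-starved arrays with the one against control.

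In roots no EIN3 difference was called. Potassium-starved roots had 610.7, 441.5 and 561.9 and control roots 352.9, 506.0 and 508.8, so the groups overlapped. The log2 difference was 0.25 ± 0.189 (95% interval -0.17 to 0.66, adjusted p = 0.52), in a comparison where 1.09% of the 14432 tested probe sets were called. Control root replicate 1 was the lowest root array for EIN3 (352.9) and had the highest actin ratio of the root arrays (2.17). Caesium-treated root replicate 1 was the next on both counts, with an EIN3 signal of 369.9, while potassium-starved root replicate 1 had the highest EIN3 signal (610.7) and the lowest ratio (1.24). The order was not strict, since control root replicate 3 had 508.8 at a ratio of 1.51 and potassium-starved root replicate 2 had 441.5 at 1.61. By the GAPDH ratio control root replicate 1 lay at 1.19, caesium-treated root replicate 1 at 1.3 and potassium-starved root replicate 1 at 1.09. The highest GAPDH ratio of the root arrays was 1.36, in control root replicate 3. The lowest was 0.967, in caesium-treated root replicate 3. The part of RNA quality in the root values was not tested. Caesium-treated roots had 369.9, 426.7 and 465.6, all within the span of the control roots, and differed from them by -0.10 ± 0.189 (95% interval -0.52 to 0.31, adjusted p = 0.904). By limma 0.0% of probe sets, 0 of 14432, were called in that comparison, 1399 had an unadjusted p below 0.05, and 42 were called with the replicate number as a block, the most under any other setting run. Caesium-treated roots lay -0.35 ± 0.189 from potassium-starved roots (95% interval -0.76 to 0.07, adjusted p = 0.283), where 4.54% of probe sets were called. For scale, the root spread of EIN3 was 0.244 (pooled log2 SD), close to the median of 0.248 over tested probe sets.

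**Figure D2:**
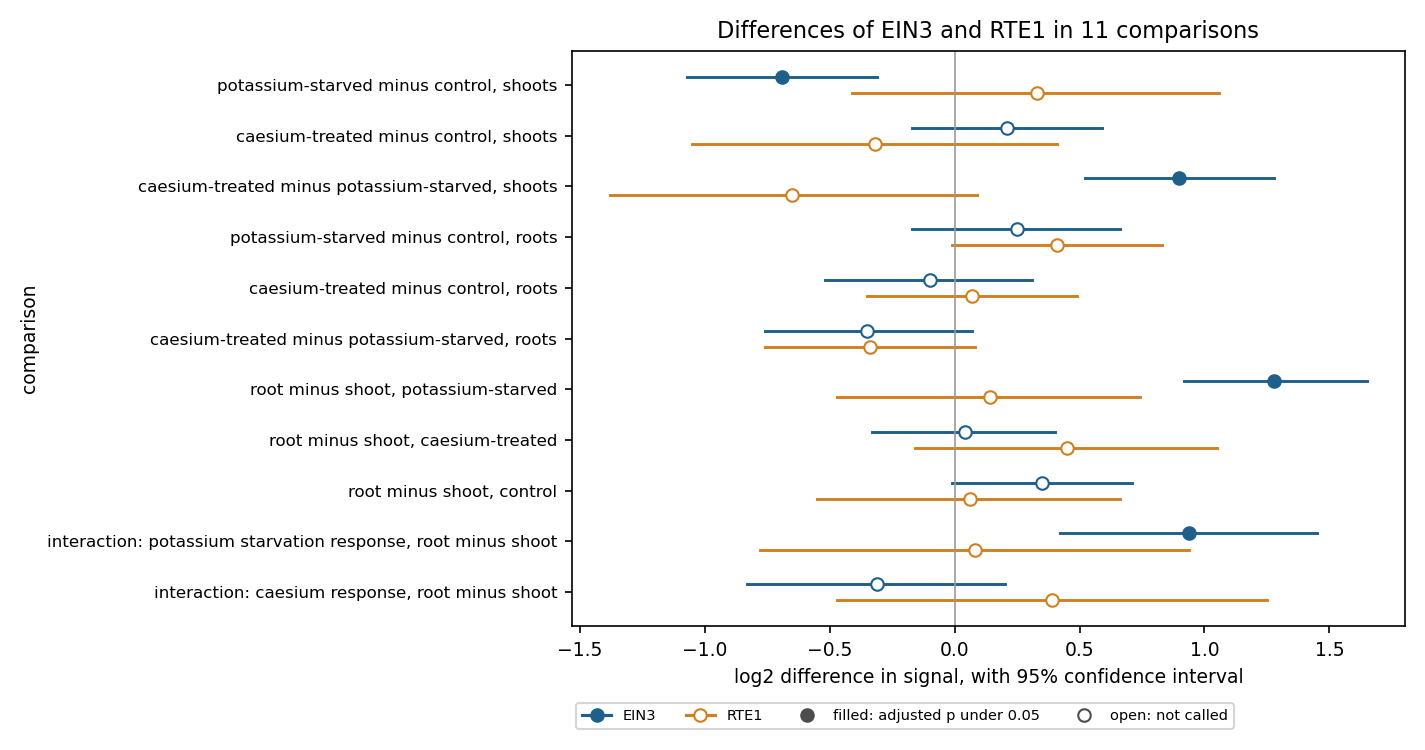
Log2 differences in signal of EIN3 and RTE1 in 11 comparisons by limma, as points with 95% confidence intervals, filled where the adjusted p was under 0.05. EIN3 was called in 4 comparisons, all of which involve potassium-starved shoots, and RTE1 in none. In shoots, 28.1% of all probe sets were called for potassium-starved minus control and 26.8% for caesium-treated minus potassium-starved. For potassium-starved roots minus shoots 58.7% were called, and for the potassium response between organs 8.37%.

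The response of EIN3 to potassium starvation differed between organs. The log2 difference from control in roots minus that in shoots was 0.94 ± 0.243 (95% interval 0.42 to 1.45, adjusted p = 0.0261 by limma over all 18 arrays). Of 16397 probe sets 8.37% were called for this difference between organs, and 87.0% of the 699 with a more positive response in roots exceeded EIN3. The call was lost without control root replicate 1 (0.76, adjusted p = 0.0632), potassium-starved root replicate 1 (0.84, 0.0676), potassium-starved root replicate 3 (0.90, 0.065), potassium-starved shoot replicate 2 (0.80, 0.0602) or control shoot replicate 3 (0.93, 0.0533). Control root replicate 1 and potassium-starved root replicate 1 are the root arrays with the highest and the lowest actin ratio. Their GAPDH ratios, 1.19 and 1.09, lay inside the root range of 0.967 to 1.36. For caesium the same difference was -0.31 ± 0.243 and was not called (95% interval -0.83 to 0.20, adjusted p = 0.745), where 0.14% of probe sets were.

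Set organ against organ, EIN3 was 2.44-fold higher in potassium-starved roots (538.1 ± 87.1) than in potassium-starved shoots (220.8 ± 34.3). The log2 difference was 1.28 ± 0.172, with an adjusted p of 7.48e-06, and it stayed called in all 24 refits at 1.11 to 1.42. Between organs 58.7% of probe sets were called under potassium starvation. Under caesium, 420.7 ± 48.1 in roots and 409.1 ± 34.6 in shoots differed by 0.04 ± 0.172 (95% interval -0.33 to 0.40, adjusted p = 0.875), with 47.3% of probe sets called. In controls, 455.9 ± 89.2 in roots and 353.0 ± 9.65 in shoots differed by 0.35 ± 0.172 (95% interval -0.01 to 0.71, adjusted p = 0.0983), with 53.1% called. Without control root replicate 1, whose 352.9 is below 2 of the 3 control shoots, the control difference was 0.52 and was called (adjusted p = 0.0196).

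**Figure D3:**
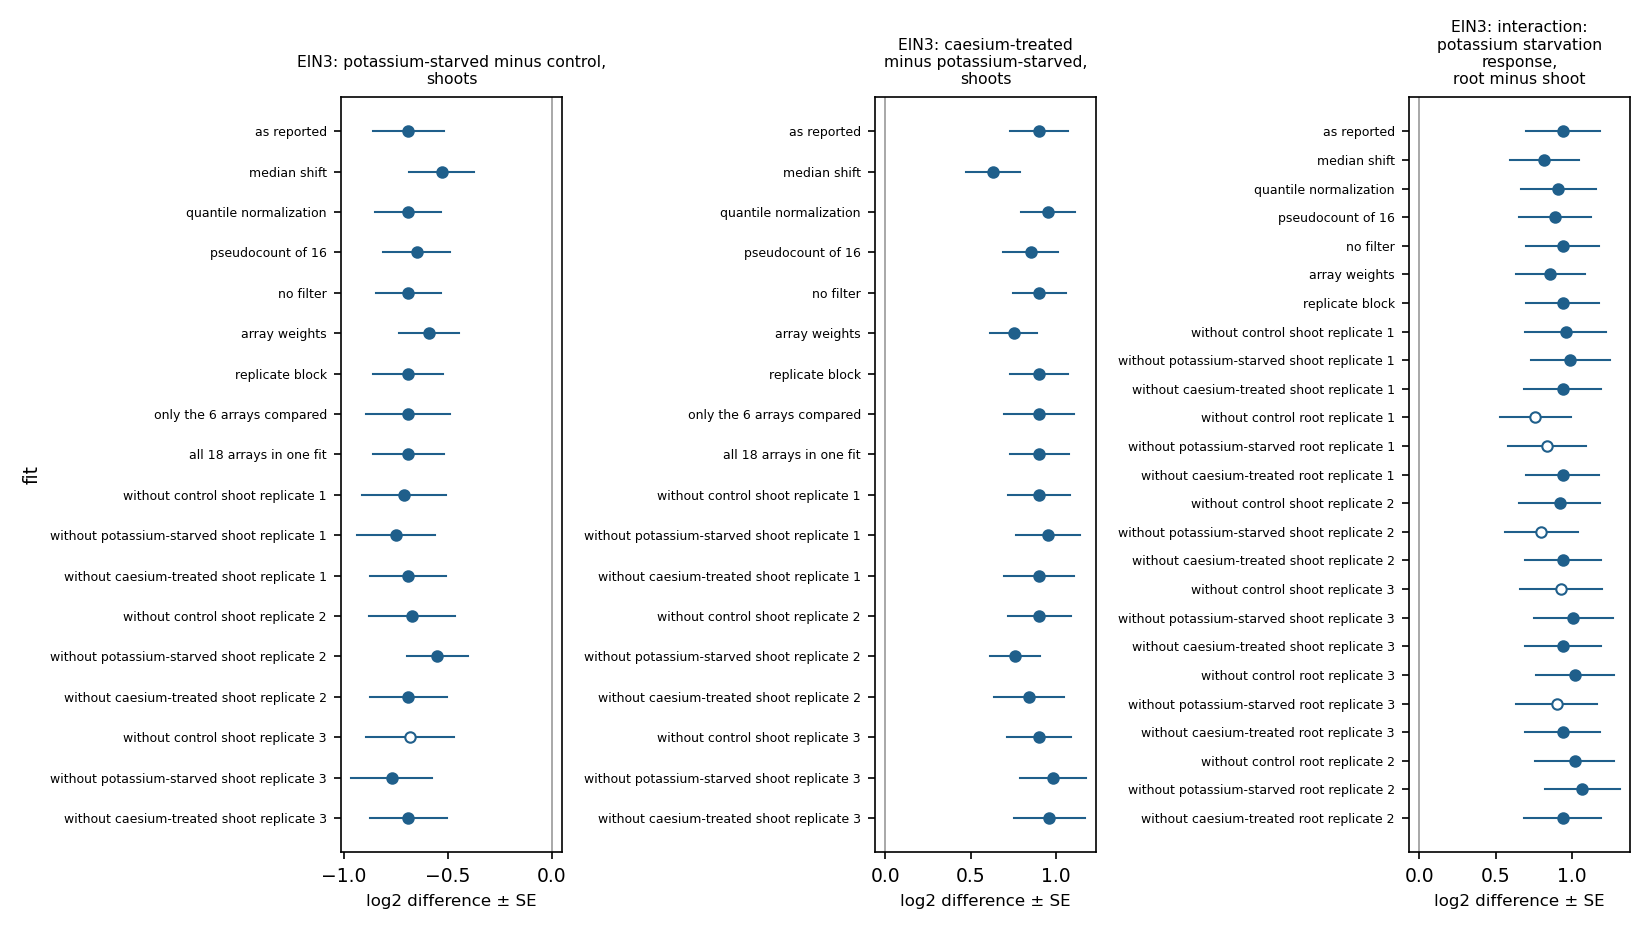
The 3 called EIN3 differences that involve treatment (log2 difference ± SE by limma) under each setting and without each array, filled where the adjusted p was under 0.05. The caesium-treated against potassium-starved difference was called throughout, the potassium-starved against control difference lost its call once, and the difference between organs lost it 5 times.

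RTE1 was called in no comparison. In shoots its signal was 78.7, 197.7 and 112.9 under potassium starvation, against 112.4, 114.5 and 68.9 in controls. The groups overlapped, and the highest value came from replicate 2, the array that also gave the lowest EIN3. The log2 difference was 0.33 ± 0.332 (95% interval -0.41 to 1.06, adjusted p = 0.487). Without that array it was -0.03 with an adjusted p of 0.957. Caesium-treated shoots had 96.3, 64.8 and 73.1, overlapping the controls, with a difference of -0.32 ± 0.332 (95% interval -1.05 to 0.41, adjusted p = 0.742). Against potassium-starved shoots they differed by -0.65 ± 0.332 (95% interval -1.38 to 0.09, adjusted p = 0.17), and by -0.29 without potassium-starved shoot replicate 2. The RTE1 probe set was noisy in shoots, with a pooled log2 SD of 0.485 that exceeded 84.1% of tested probe sets. For potassium-starved minus control and caesium-treated minus potassium-starved, the intervals hold changes of about the size EIN3 showed, but only in the opposite direction. The EIN3 values in these comparisons, -0.69 and 0.90, lie outside them.

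In roots RTE1 was steadier, with a pooled log2 SD of 0.232. Potassium-starved roots had 116.6, 140.8 and 142.5, against 124.2, 91.0 and 88.2 in control roots. Only control replicate 1 reached into the potassium-starved span. The log2 difference was 0.41 ± 0.189, with a 95% interval of -0.01 to 0.83 and an adjusted p of 0.28, and no refit gave a call. Caesium-treated roots had 101.9, 89.8 and 126.1, which overlapped control roots (0.07 ± 0.189, adjusted p = 0.935) and potassium-starved roots (-0.34 ± 0.189, adjusted p = 0.293). Roots minus shoots gave 0.14 ± 0.287 under potassium starvation, 0.45 ± 0.287 under caesium and 0.06 ± 0.287 in controls, with adjusted p of 0.70, 0.219 and 0.885. With array weights the caesium value was 0.52 and was called (adjusted p = 0.0473). The difference between organs in the response was 0.08 ± 0.406 for potassium starvation (95% interval -0.78 to 0.94, adjusted p = 0.926) and 0.39 ± 0.406 for caesium (95% interval -0.47 to 1.25, adjusted p = 0.826).

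**Figure D4:**
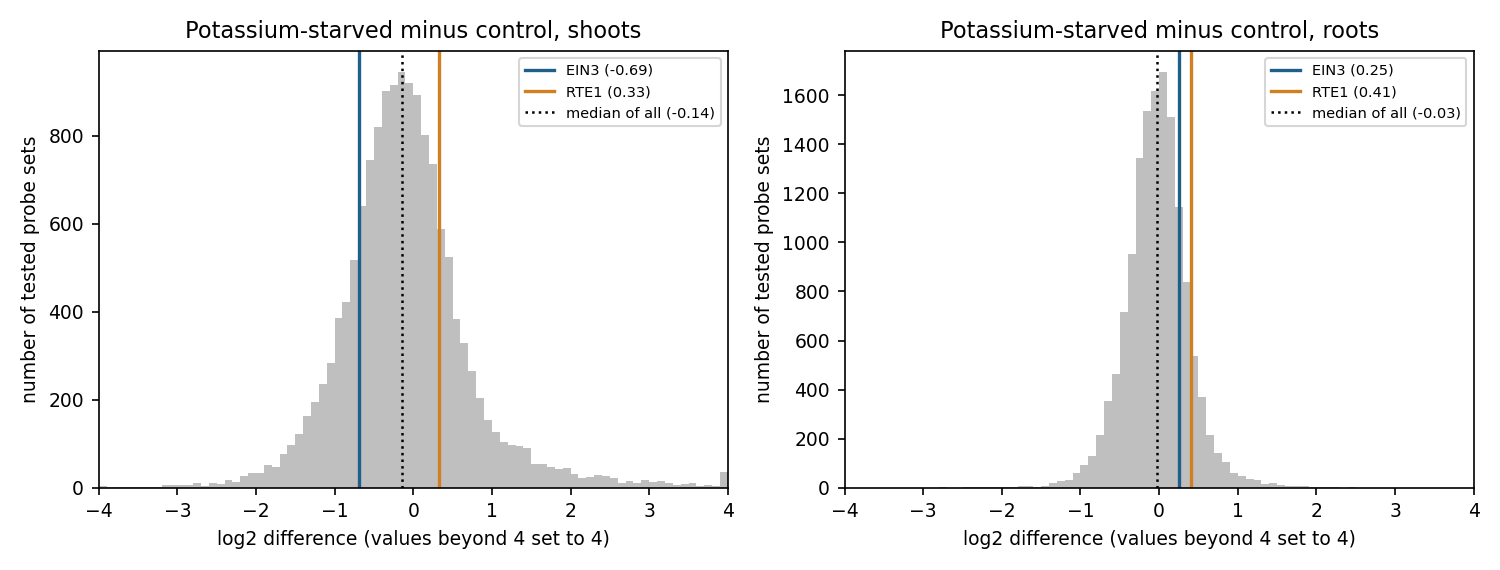
Histograms of the log2 difference of all tested probe sets for potassium-starved minus control, in shoots and in roots, with lines at EIN3, RTE1 and the median of all. In shoots EIN3 (-0.69) lies left of the median (-0.14) and RTE1 (0.33) right of it, and in roots both lie right of the median (0.25 and 0.41 against -0.03).

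Few other ethylene genes could be read under their own name. Of 101 genes in 5 lists (synthesis, receptors and their partners, the core between EIN2 and EIN3, ERF and EDF transcription factors, and EIN3 targets or ethylene-responsive genes) 9 had a probe set with that gene alone. These were AT1G12010 of 23 synthesis genes, RTH of 12 receptors and partners, ETP2, AT5G10120 and AT5G65100 of 14 core genes, and PDF1.2, PORB, ARR15 and ARL of 21 targets or responsive genes. None of the 31 ERF and EDF factors had one, so the lists do not describe the pathway. In potassium-starved against control shoots 1 of 6 tested members rose and 1 fell, with a median difference of -0.13 against -0.14 over all probe sets. With 28.1% of all probe sets called there (11.4% higher and 16.7% lower), the members' share was near that of all. In caesium-treated against control shoots 0 of 6 were called, where 0.566% of all probe sets were. In caesium-treated against potassium-starved shoots 1 of 6 was called higher (PORB) and 1 lower (RTH), where 26.8% of all probe sets were called. The median there was -0.21, against 0.16 over all. In roots 0 of 5 were called in each comparison, where 1.09% of all were for potassium-starved minus control, 0.0% for caesium-treated minus control and 4.54% for caesium-treated minus potassium-starved. The root median was 0.09 for potassium starvation (-0.03 over all probe sets) and -0.02 for caesium (0.01 over all).

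RTH, the homologue of RTE1, was the member that rose. Its signal was 223.5, 241.9 and 212.6 in potassium-starved shoots, against 160.5, 166.9 and 160.7 in control shoots. The groups did not overlap, as for 17.0% of tested probe sets in that direction, and the log2 difference was 0.47 ± 0.154 with an adjusted p of 0.0425 by limma. The call was lost in 10 of 17 refits, among them every one that left out an array (range over all refits 0.42 to 0.63, adjusted p 0.00981 to 0.122). Caesium-treated shoots had 154.0, 141.4 and 140.1, below potassium-starved shoots by -0.64 ± 0.154 (adjusted p = 0.0147). That call was lost without caesium-treated shoot replicate 2 (adjusted p = 0.0514) or 3 (0.0567). In roots RTH was 243.6 ± 19.6 under potassium starvation, 221.2 ± 7.34 under caesium and 229.5 ± 29.6 in controls, with no call. The difference of the potassium response between organs was -0.38 ± 0.179 and was not called (adjusted p = 0.194). The potassium-starved minus control difference in shoots was thus 0.47 for RTH and 0.33 for RTE1, and without potassium-starved shoot replicate 2 it was 0.42 for RTH and -0.03 for RTE1.

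PORB was the member that fell. It encodes a protochlorophyllide oxidoreductase, an enzyme of chlorophyll synthesis, and EIN3 is known to bind its promoter in greening seedlings. Its signal was 743.4, 403.8 and 881.8 in potassium-starved shoots, against 2013.9, 1942.3 and 1999.8 in control shoots. The log2 difference was -1.63 ± 0.255 (adjusted p = 0.00186), and -1.29 without potassium-starved shoot replicate 2. Caesium-treated shoots had 1787.1, 1452.3 and 1274.9, above potassium-starved shoots by 1.21 ± 0.255 (adjusted p = 0.00883) and -0.41 ± 0.255 from control shoots (adjusted p = 0.519). Shoots of the 3 conditions thus ranked alike for PORB and EIN3 only at the low end, where potassium starvation was lowest for both.

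In roots PORB was dim, at 30.6 ± 7.17 under potassium starvation, 34.6 ± 4.41 under caesium and 14.6 ± 1.45 in controls. On all 3 control root arrays the signal was under that array's 40th percentile, and PORB passed the filter in roots through treated arrays alone, so the size of its root differences is uncertain. Against control roots the log2 difference was 1.04 ± 0.258 for potassium starvation (adjusted p = 0.0804 by limma) and 1.24 ± 0.258 for caesium (adjusted p = 0.151). With a pseudocount of 16 it was 0.60 and 0.72, and none of these 4 values was called. Over all refits the potassium starvation difference in roots was called in 1 of 16 and the caesium difference in 0 of 17. The summed shoot markers in roots were 149.9 to 276.2 under potassium starvation, 246.9 to 390.7 under caesium and 115.3 to 231.5 in controls, so caesium-treated roots lay above controls in both, and the part of shoot material was not tested. The potassium response of PORB in roots minus that in shoots was 2.67 ± 0.344 (adjusted p = 0.000265 by limma), and 2.2 with the pseudocount (adjusted p = 0.00028). Without the pseudocount 8.37% of all probe sets were called for this difference between organs.

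The remaining listed genes gave no call between treatments without the replicate block. ETP2, an F-box protein gene whose product targets EIN2 for degradation, had group means between 41.4 and 55.2 and differences from control of -0.21 to -0.06. ARL, a gene for organ growth, had 367.1 ± 226.8 in potassium-starved and 211.7 ± 106.3 in control shoots (0.76 ± 0.466, adjusted p = 0.248). It was higher in potassium-starved than in control shoots in all 3 same-numbered pairs. With the replicate number as a block it was called (0.76 ± 0.235, adjusted p = 0.0286 by limma). Without the block 28.1% of all probe sets (4116) were called in that comparison, and up to 5684 under the other settings run. The share with the block is not given here. How many probe sets agree in all 3 pairs was not counted, here or for PDF1.2 below. ARR15, a response regulator gene of cytokinin signalling, had 35.9 ± 6.23 and 40.9 ± 14.5 in those groups and was too dim in roots to be tested there. PDF1.2, a defensin gene that ethylene and jasmonate induce together, ran from 41.4 to 1692.4 in potassium-starved, 207.5 to 2461.6 in caesium-treated and 33.2 to 2007.8 in control shoots. In each condition replicate 2 was by far the highest. Within same-numbered arrays PDF1.2 was higher under caesium than under potassium starvation in all 3 pairs, at 425.0 against 51.5, 2461.6 against 1692.4 and 207.5 against 41.4. Caesium-treated minus potassium-starved was 1.97 ± 1.64 without a block (adjusted p = 0.398 by limma). With the replicate number as a block it was 1.97 ± 0.497 and was called (adjusted p = 0.0126). Without the block 26.8% of all probe sets (3935) were called in that comparison, and up to 5478 under the other settings run, with the block's share again not given. PDF1.2 also exceeded control in all 3 pairs under caesium, with no call (1.24 ± 0.497 with the block, adjusted p = 0.192). Potassium-starved minus control was -0.73 ± 0.497 with the block (adjusted p = 0.271). AT1G12010 averaged 318.3 ± 69.4 in potassium-starved roots, 395.9 ± 138.7 in caesium-treated roots and 380.5 ± 230.4 in control roots, and was not tested in shoots. AT5G10120 and AT5G65100 had group means of 4.83 to 12.4 throughout and were not tested.

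**Figure D5:**
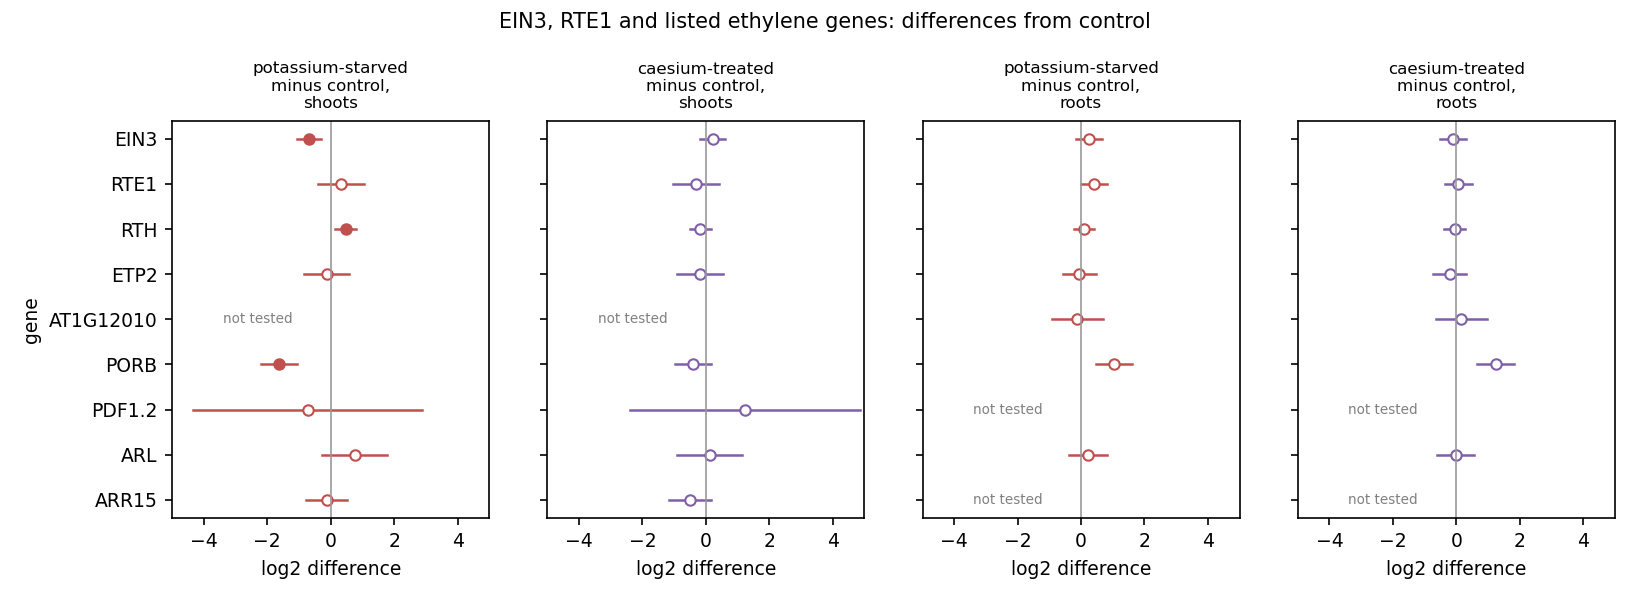
Log2 differences from control (points with 95% intervals, limma) of EIN3, RTE1 and the listed ethylene genes that passed the filter, in each tissue and treatment, filled where the adjusted p was under 0.05. The 3 filled points, EIN3, RTH and PORB, are all in potassium-starved shoots, and the intervals of PDF1.2 are the widest.

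The genes whose pattern lay closest to that of EIN3 were sought across the 18 arrays, after the mean of each tissue was removed, among 6941 probe sets with 1 gene. Pearson's r was 0.92 for AT5G23330, 0.905 for TIC, 0.905 for AT1G03740, 0.903 for AT4G31080 and 0.896 for AT5G14720. TIC, which encodes the circadian clock regulator TIME FOR COFFEE, averaged 170.1 in potassium-starved, 349.1 in caesium-treated and 298.8 in control shoots. In roots it averaged 340.1, 304.3 and 314.0 in the same order of conditions. With the tissue mean removed, potassium-starved shoot replicate 2 was the lowest of the 18 arrays for EIN3 and for each gene named here. For TIC it lay at -1.444 on the log2 scale, against -0.4067 and -0.1839 in potassium-starved shoot replicates 1 and 3.

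For RTE1 the closest were AT4G27130 (r = 0.836), AT2G21195 (0.823), BZIP53 (0.817), UBC19 (0.807) and AT5G44170 (0.788). BZIP53, a transcription factor gene, averaged 502.2 in potassium-starved, 292.2 in caesium-treated and 327.7 in control shoots, and 819.9, 664.9 and 675.1 in roots of those conditions. UBC19, a gene for a ubiquitin-conjugating enzyme, averaged 333.9, 222.1 and 250.3 in shoots and 171.0, 155.3 and 153.7 in roots. AT4G27130 averaged 440.6, 334.4 and 462.2 in shoots, with control the highest, and 710.0, 635.8 and 653.7 in roots. With the tissue mean removed, potassium-starved shoot replicate 2 was the highest of the 18 arrays for RTE1 and for each gene named here. The 18 points of each correlation share their arrays and the arrays' scaling, and the values describe likeness on these arrays only.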

How the data were processed

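Transcript levels were measured on 1-colour Affymetrix ATH1 arrays. Each value that the authors deposited is a linear signal intensity of 1 probe set. Per the submitters' processing notes MAS5 was used. Its version and settings are not given in sources used here. Of 22810 probe sets 64 controls were left out. The platform annotation gave 1 gene for 13513 of the rest, several for 503 and none for 8730, and symbols were updated through RefSeq (TAIR10.1, 13436 matched). EIN3, RTE1 and the lists were chosen with earlier results of these data known. Listed genes are all named, and for likeness the 5 highest correlations per gene.

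The log2 of the signal was taken without a pseudocount. Probe sets above the 40th percentile of an array on 3 or more arrays of a fit were tested. Fits used limma 3.58.1 in R 4.3.3 (lmFit, eBayes with a trend), for each tissue on its 9 arrays and for organs on all 18. Tests were two-sided, with Benjamini-Hochberg adjustment over all tested probe sets within a comparison and calls at an adjusted p under 0.05. Rose and fell are used of calls only. The fit was tested on simulated data. Without read depth, precision depends on the number of arrays and on the spread of each probe set. Replicate numbers paired the shoot arrays, where deviations from group means correlated at 0.203 to 0.639 in 9 of 9 same-numbered pairs, as did caesium-treated and control roots (0.146 to 0.439). Alternatives were a median shift, quantile normalization, a pseudocount of 16, no filter, array weights, the replicate block, other sets of arrays and leaving out each array.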

Additional observations from a re-analysis of the deposited data

Results flagged for a closer look

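The EIN3 response to potassium starvation differed between organs by 0.94 on the log2 scale (roots minus shoots, adjusted p = 0.0261 by limma), since the difference from control was 0.25 in roots and -0.69 in shoots. The PORB response differed the same way by 2.67 (adjusted p = 0.000265), with 1.04 in roots and -1.63 in shoots. Both were singled out because the test of the difference itself passed, as it did for 8.37% of the 16397 tested probe sets. The EIN3 value kept its call in 13 of 18 fits that left out an array (adjusted p 0.0172 to 0.0676 by limma). The EIN3 difference of 0.25 in roots was not called. In control roots every PORB signal was under its array's 40th percentile. The size of the PORB value is therefore uncertain, and with a pseudocount of 16 it was 2.2.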

How the results depend on the processing

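EIN3 and RTE1 gave 22 results, which were refitted 444 times. In 420 refits the direction and the side of the threshold were kept, in 6 a call was lost, in 2 one was gained and in 16 an uncalled value changed sign. The cause was not tested. Leaving out 1 array, EIN3 ran from -0.77 to -0.55 for potassium-starved minus control shoots, from 0.76 to 1.07 for the potassium response between organs, from 0.26 to 0.52 for control roots minus shoots and from -0.04 to 0.13 for caesium-treated roots minus shoots. RTE1 ran from -0.03 to 0.64 for potassium-starved minus control shoots, from -0.06 to 0.23 for caesium-treated minus control roots and from -0.23 to 0.44 for the potassium response between organs. For roots minus shoots RTE1 ran from -0.18 to 0.18 in controls and from -0.17 to 0.49 under potassium starvation. After the median shift RTE1 had -0.04 for the potassium response between organs, -0.04 for potassium-starved roots minus shoots and -0.0039 for control roots minus shoots, which quantile normalization put at -0.01. With array weights caesium-treated roots minus shoots was 0.52 for RTE1 and called (adjusted p = 0.0473).

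With the replicate number as a block EIN3 had -0.69 for potassium-starved minus control shoots (adjusted p = 0.0103), 0.90 for caesium-treated minus potassium-starved shoots (0.00347) and 0.94 for the potassium response between organs (0.0229). The block changed no EIN3 or RTE1 call. Among listed genes it added the calls of ARL and PDF1.2 given above and that of PORB for the caesium response between organs (1.66, adjusted p = 0.0414 by limma). That PORB difference was called in 5 of its 24 refits. It rests on dim PORB signals in control roots (13.0 to 15.9), so its size is uncertain. Without the block 0.14% of all probe sets (23) were called for the caesium response between organs. Up to 237 were called under the other settings run. The share of all probe sets called with the block is not given for any of these comparisons. In roots 7 of 9 same-numbered pairs correlated above 0.1, among them all 3 of caesium-treated with control roots (0.146 to 0.439), and across tissues 14 of 27 did.

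Counts of called probe sets moved more. For potassium-starved minus control they ran from 2358 to 5684 in shoots (4116 reported) and from 28 to 1076 in roots (158). For caesium-treated minus control they ran from 0 to 1196 in shoots (83, and 681 with the block) and from 0 to 42 in roots (0). For caesium-treated minus potassium-starved they ran from 1894 to 5478 in shoots (3935) and from 126 to 2548 in roots (655). Between organs they ran from 862 to 1999 for potassium (1373) and from 0 to 237 for caesium (23). After the median shift potassium-starved shoots had 2098 higher and 1836 lower calls, against 1670 and 2446 reported, and caesium-treated minus potassium-starved shoots 1524 and 2331, against 2638 and 1297.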
